A study of Mus musculus with 9 samples.

Results

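Voltage-gated sodium channels are membrane proteins built from a large pore-forming alpha subunit and smaller beta subunits that cross the membrane once. The alpha subunit opens on depolarisation and lets sodium into the cell, which starts the action potential in nerve and muscle. Beta subunits carry an extracellular immunoglobulin-like fold, tune the gating and surface level of the alpha subunit, and act as cell adhesion molecules. Endothelial cells do not fire action potentials, although sodium channel transcripts have been found in them and in other non-excitable cells.

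Described here are 7 genes of this family: the beta subunits Scn2b, Scn3b and Scn4b and the alpha subunits Scn1a, Scn3a, Scn8a and Scn9a. They are 7 of 55487 genes in the table and were taken by symbol from a list chosen by their measured levels in these same libraries and the differences between the groups. Their levels and differences are therefore given as a description. Where calls of the gene-wise model are counted for them, nothing is read from those counts. Of the 7 genes, 4 passed the filter on low counts that the gene-wise model requires (Scn2b, Scn4b, Scn3a and Scn9a), 2 had too few counts (Scn1a and Scn8a), and Scn3b had 0 counts in every library.

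RNA came from MCEC, a line of murine cardiac endothelial cells, in 3 groups of 3 libraries. The WT genotype was unmodified, the second group carried a Zbtb46 knockdown (KD), and in the third Zbtb46 was overexpressed (OE). Zbtb46 encodes a zinc finger transcription factor with a BTB domain. The method of knockdown and of overexpression is not given in the labels, which also do not say whether each modified line is 1 clone or a pool, and libraries from cells with a control vector were not analysed here. Nothing in the labels says that replicates came from separate cultures, so p-values measure only the spread between these libraries, which may be technical.

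Each library held between 39491828 and 55745849 counts, so that 1 count was worth 0.0168 to 0.0264 CPM, the unit of counts scaled to a common library total with TMM factors. Zbtb46 itself stood at 13.7 ± 0.623 CPM (SD, n = 3) in WT, 11.2 ± 0.537 CPM in KD and 191 ± 2.67 CPM in OE. Of 16955 genes tested, 21.3% passed an adjusted p of 0.05 between KD and WT (edgeR's quasi-likelihood test, adjusted by Benjamini-Hochberg), 11.0% higher and 10.4% lower in KD. Between OE and WT 36.4% passed, 17.0% higher and 19.5% lower in OE, and between OE and KD 41.5% passed, 19.4% higher and 22.1% lower in OE. Scaling by library totals alone lowered the share of higher genes among those that passed from 51.4% to 35.8% in KD and from 46.6% to 31.6% in OE. The defining endothelial genes Pecam1 and Cdh5 had mean levels of at most 0.150 CPM in each group and Erg had 0 counts in all 9 libraries. Of 15 endothelial markers, 7 passed the filter. In WT, Kdr stood at 2.64 ± 0.252 CPM (SD, n = 3), Tek at 1.84 ± 0.114, Egfl7 at 5.18 ± 0.459 and Ecscr at 4.73 ± 0.219. Esam stood at 0.612 ± 0.407 CPM, Fli1 at 0.376 ± 0.117 and Eng, which other cells also make, at 124.5 ± 6.78. Tie1, Emcn, Vwf, Cldn5 and Robo4 did not pass and averaged at most 0.106 CPM in WT. As these are bulk samples, fewer cells expressing a gene and less of its RNA per cell cannot be told apart.

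Scn2b was present in KD libraries and absent from the others. The gene encodes the beta subunit that is joined to the alpha subunit by a disulphide bond and that controls how many channels reach the cell surface. Scn2b (ENSMUSG00000070304) had 763, 578 and 788 counts in KD replicates 1, 2 and 3. It had 0 counts in each of the 3 WT and each of the 3 OE libraries. Every KD library thus held at least 578 counts, and no count was seen in the other 6 libraries.

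The KD mean for Scn2b was 15.3 ± 0.819 CPM (SD, n = 3), with a range of 14.5 to 16.1 CPM over the 3 libraries. The 95% Poisson interval of the summed 2129 KD counts was 14.7 to 15.99 CPM, which covers counting error only. In WT, 0 counts over 3 libraries gave an upper 95% Poisson limit of 0.0260 CPM, and in OE of 0.0261 CPM. Against a floor of 3 counts per library, Scn2b was at least 233.0-fold higher in KD than in WT and at least 239.6-fold higher in KD than in OE. Scn2b was also the only gene of 55487 with 0 counts in all WT and OE libraries that averaged 5 CPM or more in KD, a pattern looked for after its values were seen. With a minimum of 1 CPM in KD, the pseudogene Olfr333-ps1 joined it.

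**Figure D1:**
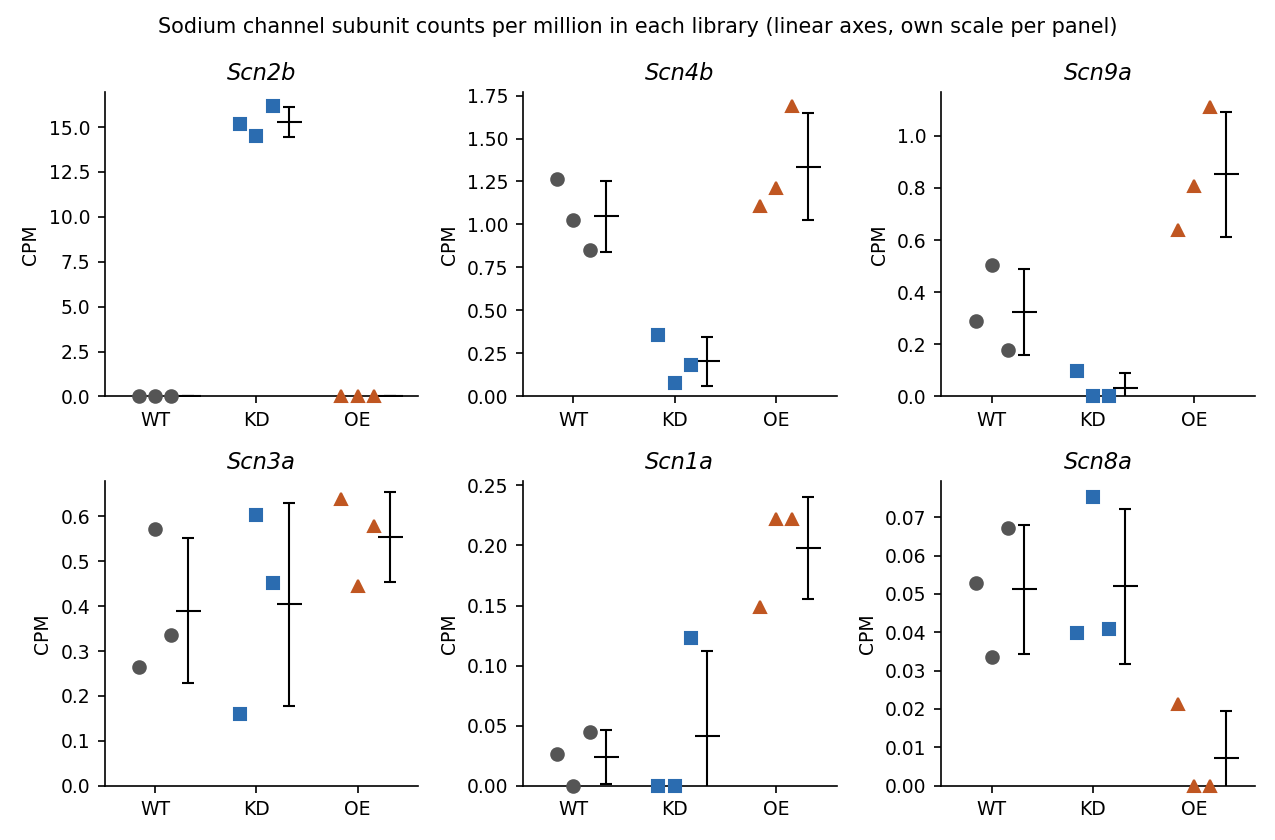
Normalised counts (CPM, linear vertical axes that differ between panels) of 6 sodium channel subunits in WT, KD and OE libraries; each symbol is 1 library, and the horizontal mark with its bar gives the mean and SD over 3 libraries, the bars ending at 0 where the SD exceeds the mean. Scn2b stands between 14.5 and 16.1 CPM in KD and at 0 elsewhere, Scn4b and Scn9a are lowest in KD, and the Scn3a libraries of the 3 groups overlap.

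Scn2b and Scn4b are neighbours. On GRCm38 with GENCODE M21 gene models, Scn2b occupies chr9:45117782-45130070 and Scn4b chr9:45138395-45154152, both on the plus strand, with 8324 bases between them. The sequence before the Scn2b start is shown because this gene went from 0 counts to at least 578 in each KD library. It is the stretch of the RefSeq promoter window (GRCm38.p6) that lies ahead of both the RefSeq and the GENCODE start, chr9:45117626-45117781, plus strand, 156 bases, with matches to the E-box CANNTG in capitals. This short palindromic motif is known as a site for basic helix-loop-helix and some zinc finger factors.
Scn2b: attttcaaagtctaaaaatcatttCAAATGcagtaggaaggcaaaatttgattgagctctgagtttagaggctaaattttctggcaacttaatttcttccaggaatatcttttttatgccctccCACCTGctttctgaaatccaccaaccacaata

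The printed stretch holds 2 E-box matches, and the whole 300-base window holds 3. Of 32851 RefSeq promoter windows of the same length, 72.3% hold at least 1 match, so that a match is common. The Scn2b window was 38.3% GC with 2 CpG dinucleotides, against medians of 52.7% GC and 7 CpG over all windows. The Scn4b window next to it was 66.3% GC with 26 CpG and held 0 E-box matches. Neither window holds GGGCGG, found on either strand in 35.7% of windows, or TATAAA, found on either strand in 13.6%. The motif matches are descriptions of the letters and not of binding.

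Scn4b moved the other way from Scn2b between KD and WT. Its product, another beta subunit linked to the alpha subunit by a disulphide bond, has a short cytoplasmic tail that can block the open pore and gives rise to resurgent sodium current in some neurons. Scn4b (ENSMUSG00000046480) had 48, 61 and 38 counts in WT, 18, 3 and 9 in KD and 52, 60 and 76 in OE. The highest KD library lay below the lowest WT library, and the WT and OE libraries overlapped.

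In normalised values Scn4b stood at 1.05 ± 0.208 CPM (SD, n = 3) in WT, 0.206 ± 0.142 CPM in KD and 1.34 ± 0.310 CPM in OE. The log2 fold change of KD against WT was -2.28 (SE 0.53), and that of OE against KD was 2.64 (SE 0.54). Between OE and WT it was 0.36 (SE 0.24), a difference within the spread between libraries. The KD value rested in part on KD replicate 1, whose 18 counts were the most of the 3: without it, the log2 fold change was -2.93 against WT, and 3.28 for OE against KD. From summed counts, the KD level was 0.209 of the WT level, with a 95% interval of 0.136 to 0.311 that covers counting error only.

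Scn3b, the remaining beta subunit of the 7 genes, which binds the alpha subunit without a covalent bond, lies on the same chromosome at chr9:40269217-40291618, 4826163 bases from Scn2b. Its 0 counts in all 9 libraries allow up to 0.0260 CPM in WT, as for Scn2b.

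Scn9a was lowest in KD and highest in OE. It encodes the channel of pain-sensing neurons whose loss abolishes the sense of pain in people. Scn9a (ENSMUSG00000075316) had 11, 30 and 8 counts in WT, 5, 0 and 0 in KD and 30, 40 and 50 in OE. In normalised values the 3 groups did not overlap: KD reached at most 0.0993 CPM, WT ran from 0.179 to 0.504 CPM and OE from 0.639 to 1.11 CPM.

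The mean of Scn9a was 0.324 ± 0.165 CPM (SD, n = 3) in WT, 0.0331 ± 0.0573 CPM in KD and 0.853 ± 0.239 CPM in OE. Its log2 fold change was -3.13 (SE 0.69) for KD against WT, 1.35 (SE 0.44) for OE against WT and 4.48 (SE 0.62) for OE against KD. The SE was computed at a prior count of 2, at which the log2 fold changes were -2.43 for KD against WT and 3.78 for OE against KD. All 5 KD counts came from replicate 1. Without that library the fitted log2 fold changes were -6.96 against WT and 8.31 for OE against KD, values set by the prior count since both other KD libraries were at 0. The OE level from summed counts was 2.46 of the WT level, with a 95% interval of 1.75 to 3.50 for counting error, and WT replicate 2, with 30 counts, held most of the WT counts.

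The Scn9a gene spans chr2:66480080-66634962 on the minus strand. Its upstream sequence is shown as that of the alpha subunit among the 7 genes whose 3 groups were all separate. The groups of Scn2a, an alpha subunit outside the 7, were all separate too. The RefSeq and GENCODE starts of Scn9a are the same base, and the 250 bases ahead of it are chr2:66634963-66635212, minus strand, GRCm38.p6, with the E-box match in capitals.
Scn9a: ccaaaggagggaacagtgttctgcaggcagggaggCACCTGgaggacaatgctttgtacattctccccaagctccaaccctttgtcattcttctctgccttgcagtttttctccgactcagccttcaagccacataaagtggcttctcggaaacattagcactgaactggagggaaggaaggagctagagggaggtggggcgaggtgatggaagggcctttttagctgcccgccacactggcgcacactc

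The whole 300-base RefSeq window of Scn9a, of which the printed 250 bases are a part, holds 1 E-box match and 9 CpG at 57.3% GC. The letters of its match are also those of 1 of the 2 matches ahead of Scn2b. How common these exact letters are in other windows was not counted, so nothing is read from the shared match. RefSeq windows were found for 5 of the 7 genes, those of Scn2b, Scn4b, Scn1a, Scn8a and Scn9a, with 2 starts for Scn8a.

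Scn3a was detected in every library. It encodes an alpha subunit of the embryonic brain that declines after birth. Scn3a (ENSMUSG00000057182, chr2:65457118-65567627) had 10, 34 and 15 counts in WT, 8, 24 and 22 in KD and 30, 22 and 26 in OE. The 3 ranges overlapped, and the WT and KD libraries each spread over more than those of OE.

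Scn3a averaged 0.390 ± 0.161 CPM (SD, n = 3) in WT, 0.404 ± 0.226 CPM in KD and 0.554 ± 0.0998 CPM in OE. The log2 fold change of KD against WT was -0.0083 (SE 0.59) and changed sign with the tool or the libraries used, at 0.014 with DESeq2 and 0.40 without WT replicate 2. Against OE, the WT and KD means were lower by 0.47 each on the log2 scale, less than the spread between libraries. The 95% counting interval of the ratio of KD to WT sums ran from 0.635 to 1.38. Counting error alone thus allows a change within that range in either direction, and the spread between libraries comes on top.

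Scn1a and Scn8a were near the limit of detection. Scn1a encodes the alpha subunit of inhibitory neurons that is mutated in Dravet syndrome, and Scn8a the one concentrated at the initial segment of axons and at nodes of Ranvier. Scn1a (ENSMUSG00000064329, chr2:66270778-66440840) had 1, 0 and 2 counts in WT, 0, 0 and 6 in KD and 7, 11 and 10 in OE. The 3 OE libraries, at 0.149 to 0.222 CPM, lay above all WT and KD libraries.

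For Scn1a, OE was at least 3.02-fold higher than WT set at 3 counts per library. From the summed counts of 28 and 3 the ratio was 9.38, with a 95% counting interval of 2.90 to 48.2. Scn8a (ENSMUSG00000023033, chr15:100869858-101045938) had 2, 2 and 3 counts in WT, 2, 3 and 2 in KD and 1, 0 and 0 in OE. The OE libraries were the lowest for Scn8a, but no library of any group exceeded the floor of 3 counts, and no fold is given.

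Counted over the 4 genes tested, 3 passed the threshold between KD and WT, with Scn2b higher and Scn4b and Scn9a lower in KD, beside 21.3% of all genes. Between OE and WT 1 passed, Scn9a, beside 36.4%, and between OE and KD 3 passed, with Scn4b and Scn9a higher and Scn2b lower in OE, beside 41.5%. Of the 4 tested genes, 3 had groups that did not overlap between KD and WT, where the share among all tested genes was 34.7%. That number was 1 between OE and WT, where it was 45.1%, and 3 between OE and KD, where it was 55.4%. Scn2b is among the 4 genes only through its KD counts. With 0 counts in every WT and OE library, it could neither pass nor be separate between OE and WT. With Scn1a and Scn8a included, the groups were separate for 3 of the 7 genes between OE and WT and for 5 between OE and KD. The shares above cover tested genes only, and none is given for genes that failed the filter. Scn8a was counted although no library exceeded the floor of 3 counts. The genes were chosen for such differences, so nothing is read from these counts. Between OE and WT, Scn9a did not pass with library totals alone, with the replicate block, or without WT replicate 1, WT replicate 3 or any 1 of the 3 OE libraries. The number was then 0, except without WT replicate 3 or OE replicate 1, where Scn1a was tested and was the 1 gene that passed. Without KD replicate 2 the number was 2.

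Together the 7 genes gave 66 to 127 counts per library in WT, 608 to 827 in KD and 120 to 162 in OE. Scn2b held 95.1% to 95.9% of that sum in each KD library. Without Scn2b the order was different: the other 6 genes summed to 1.48 to 2.13 CPM in WT, 0.656 to 0.799 CPM in KD and 2.56 to 3.60 CPM in OE, and these ranges did not overlap. Among these 6, Scn4b and Scn9a were lowest in KD, whereas the Scn3a libraries overlapped and Scn3b had 0 counts. As the genes were chosen for such differences, the sum does not describe a change of all 6.

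Levels of different genes were compared per kilobase of exon. In WT the highest of the genes compared were Scn2a at 0.304 ± 0.0245 CPM per kb (SD, n = 3) and Scn4b at 0.210 ± 0.0418. Scn7a at 0.0445 ± 0.0209, Scn3a at 0.0313 ± 0.0129 and Scn9a at 0.0254 ± 0.0129 CPM per kb followed and did not differ beyond their spread. Scn8a, at 0.0032 ± 0.0011 CPM per kb, and Scn1a, at 0.0021 ± 0.0020, were last among the genes with counts.

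In KD, Scn2b was first at 3.28 ± 0.176 CPM per kb, above Scn2a at 0.343 ± 0.0104. Scn4b, at 0.0413 ± 0.0286 CPM per kb in KD, did not differ beyond its spread from Scn7a at 0.0427 ± 0.0217 and Scn3a at 0.0324 ± 0.0181. In OE the order began with Scn4b at 0.268 ± 0.0622 and Scn2a at 0.241 ± 0.0127 CPM per kb, which did not differ beyond their spread. Scn9a, at 0.0668 ± 0.0187 CPM per kb in OE, was level with Scn7a at 0.0605 ± 0.0079.

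**Figure D2:**
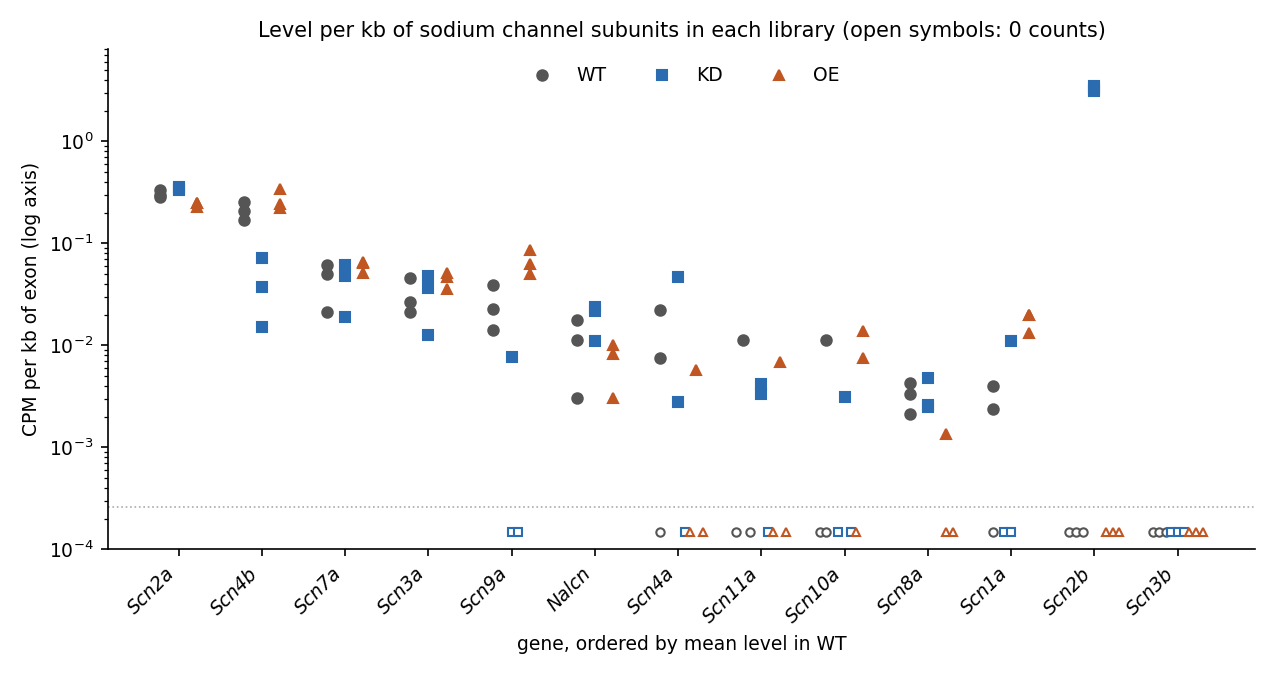
Level per kilobase of exon (CPM per kb, log axis) of 13 sodium channel genes in each of 9 libraries, ordered by the WT mean; filled symbols are libraries with counts, and open symbols under the dotted line are libraries with 0 counts. Scn2b in KD, at a mean of 3.28 CPM per kb, is the highest of the genes shown, and Scn4b and Scn9a are lower in KD than in WT and OE.

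For comparison, 6 other subunits and relatives were measured. Scn2a, the main alpha subunit of excitatory neurons early in life, had the most counts of the alpha subunits compared, from 142 to 220 per library. It averaged 3.87 ± 0.312 CPM (SD, n = 3) in WT, 4.37 ± 0.132 CPM in KD and 3.07 ± 0.161 CPM in OE. Scn4a of skeletal muscle and Scn10a and Scn11a of sensory neurons had at most 13 counts in any library.

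Of these 6 genes 3 were tested: Scn2a, Scn7a, which encodes a sodium-sensing relative, and Nalcn, which encodes a sodium leak channel. Between KD and WT 0 of 3 passed with edgeR's quasi-likelihood test and 0 had an unadjusted p under 0.05. DESeq2 and limma-voom gave 0 as well. Between OE and WT 0 of 3 passed with the 3 tools and 1 had an unadjusted p under 0.05. Between OE and KD, Scn2a was lower in OE (log2 fold change -0.51, SE 0.050; edgeR's quasi-likelihood test, Benjamini-Hochberg adjusted p 0.00594). Their median log2 fold change was 0.18 in KD and -0.33 in OE against WT, beside -0.0022 and 0.0020 over all genes tested.

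Scn1a, Scn3a and Scn9a lie in a cluster on chromosome 2 together with Scn2a and Scn7a. Scn3a and Scn2a are 53143 bases apart, Scn1a and Scn9a 39239 bases, and Scn9a and Scn7a 38462 bases. Against WT, the libraries of Scn9a were separate and lower in KD and separate and higher in OE, and those of Scn1a, which was not tested, were separate and higher in OE. Those of Scn2a were separate and higher in KD and separate and lower in OE without passing the threshold, and those of Scn3a and Scn7a overlapped in both comparisons. Some of these genes share sequence: 4.04% of the 50-base words in the annotated Scn9a transcripts, 6.49% of those of Scn3a and 4.03% of those of Scn1a occur in another of the sodium channel genes compared. The share was 5.62% for Scn2a and 0% for Scn7a and the 3 beta subunits. Scn2b shares 1.01% of its words with genes outside the family, Frrs1 among them. Annotated genes that overlap the 7 genes on either strand had 0 counts, except Gm13629, antisense to Scn9a, with 2 counts in all.

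Genes around the 7 were examined because position was not used to choose them. Within 500 kb of Scn2b and Scn4b 14 other genes were tested, all of them upstream of Scn2b. Distances were taken from the lower coordinate of each gene, on either strand. In KD, 2 of the 14 passed, beside 21.3% of all genes tested, both higher: Arcn1, a subunit of the COPI coat (log2 fold change 0.28, SE 0.069), and Ube4a, a ubiquitin ligase (0.30, SE 0.096). In OE 6 of the 14 passed, beside 36.4% of all genes, and all were lower, with a median of -0.36 over the 14. Scn4b, on the other side of Scn2b, was thus the one tested gene downstream within that distance, and its log2 fold change of -2.28 in KD lay outside the range of -0.74 to 0.83 of the 14 genes.

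The nearest tested gene upstream of Scn2b was Gm48840, on the minus strand, with its lower coordinate at -66.4 kb. Its log2 fold change was -0.072 (SE 0.32) in KD and -1.18 (SE 0.19) in OE, neither past the threshold. The gene of Mpzl2, an adhesion molecule, lies on the plus strand and overlaps Gm48840. As the use of strand in counting is not given, these genes can share counts. Mpzl2 did not pass in KD at -0.16 (SE 0.071) and fell in OE by 0.86 on the log2 scale (SE 0.072, adjusted p 1.86e-09 in edgeR's quasi-likelihood test). Scn2b itself stayed at 0 in OE, so that no change of that direction could be measured for it. No gene of the 14 passed with a 2-fold change in either comparison.

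**Figure D3:**
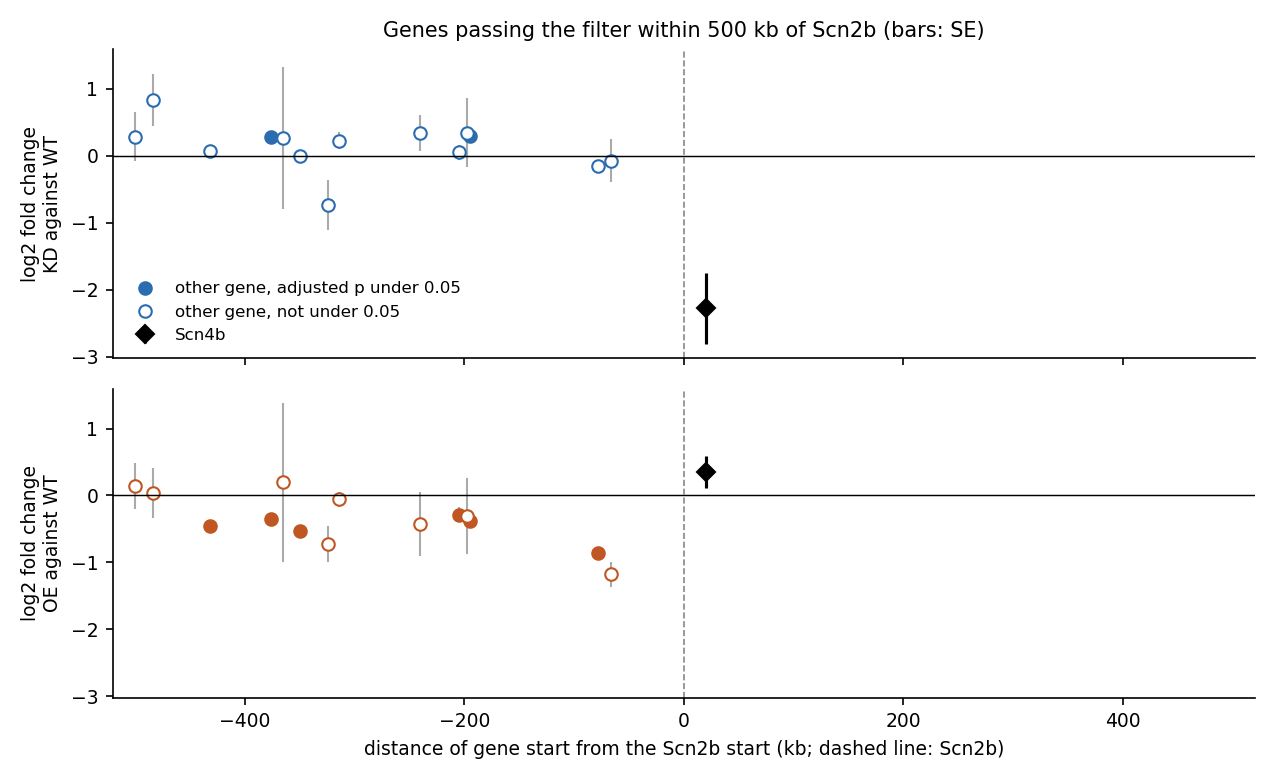
Log2 fold change (KD against WT above, OE against WT below, bars are SE) of genes tested within 500 kb of Scn2b, by their distance from Scn2b in kb. The start on the axis is the lower coordinate of each gene, on either strand. Circles are the 14 other genes, filled where the adjusted p was under 0.05, and the diamond is Scn4b. In KD the 14 genes run from -0.74 to 0.83 and Scn4b stands at -2.28, while in OE the 6 filled genes are all below 0. Scn2b, at 0 counts in WT, has no point.

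Over all loci 39 other genes were tested, of which 9 passed in KD (3 higher, 6 lower) and 17 in OE (5 higher, 12 lower), beside 21.3% and 36.4% of all genes. Next to Scn3b, Gramd1b, a cholesterol transfer protein, fell in OE from 19.4 ± 0.735 to 5.49 ± 1.04 CPM (SD, n = 3), and Zfp202 fell there by 0.67 on the log2 scale (SE 0.0999). Near Scn3a, Slc38a11 fell in OE from 4.21 ± 0.347 to 1.37 ± 0.199 CPM, and next to Scn1a, Ttc21b passed in neither comparison (0.11, SE 0.10 in KD and 0.14, SE 0.11 in OE, both log2 fold changes). Around Scn8a, Pou6f1, a POU-domain transcription factor, fell in KD from 13.0 ± 0.742 to 4.60 ± 0.126 CPM and Cela1, an elastase, from 4.30 ± 0.936 to 2.13 ± 0.293 CPM. Scn8a's nearest tested genes were Slc4a8, a bicarbonate transporter that was higher in OE by 0.46 (SE 0.12), and Fignl2, lower in KD by -0.37 (SE 0.034), as log2 fold changes. Of the 16 genes tested around Scn8a, 1 was higher and 6 were lower in KD, beside 11.0% and 10.4% of all genes, and 5 were higher and 2 lower in OE, beside 17.0% and 19.5%.

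The genes most like each tested subunit over the 9 libraries were found by Pearson correlation of log2 CPM. Only tested genes that averaged 1 CPM or more were considered, and those with provisional symbols, such as Gm or Rik names, were left out. These correlations mostly restate the differences between 3 groups and carry no test. For Scn2b they were Prdx6, a peroxidase (r = 0.998), Dnajc3, a co-chaperone of the endoplasmic reticulum (0.991), and Frrs1 (0.991). None was absent outside KD as Scn2b was: Prdx6 stood at 158 ± 7.71 CPM (SD, n = 3) in WT, 415 ± 5.76 CPM in KD and 154 ± 4.34 CPM in OE. Of 11263 genes compared, 72 had r above 0.95 with Scn2b.

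For Scn4b the nearest were Tap1, a peptide transporter of antigen presentation (r = 0.989), P2rx7, an ATP-gated ion channel (0.980), and Kcnn1, a calcium-activated potassium channel (0.974), with 25 genes above 0.95. Tap1 fell from 2.91 ± 0.181 CPM (SD, n = 3) in WT to 0.936 ± 0.270 in KD and stood at 3.22 ± 0.313 in OE, an order of groups like that of Scn4b. For Scn9a they were Gon4l (r = 0.977), Enpp1, an enzyme that makes pyrophosphate (0.977), and Cacng8, a relative of calcium channel subunits (0.973), with 31 genes above 0.95. Enpp1 stood at 2.33 ± 0.333 CPM in WT, 0.800 ± 0.325 in KD and 3.29 ± 0.434 in OE. For Scn3a, whose groups overlapped, the highest were Frg2f1 (r = 0.854), Sinhcaf (0.853) and Acp1 (0.851), and 0 genes were above 0.95.

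Genes whose products work with sodium channels were taken as lists. Of 28 partners, which anchor, traffic or ubiquitinate the channel, 18 were tested. In KD 11 rose and 2 fell, beside 11.0% and 10.4% of all genes tested, with a median log2 fold change of 0.21, but with library totals alone 5 rose and 2 fell. The rise with the smallest p was that of Dlg1, a scaffold protein, at 0.38 (SE 0.038, adjusted p 7.46e-07 in edgeR's quasi-likelihood test). In OE 3 rose and 8 fell, beside 17.0% and 19.5%, with a median of -0.13. Ank2, which encodes an ankyrin, rose in OE by 1.04 (SE 0.060, adjusted p 1.07e-10 in the same edgeR test).

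Beta subunits such as those of Scn2b and Scn4b are cut by a sheddase and beta-secretase and then by gamma-secretase. Of 10 genes for these enzymes 9 were tested. Against WT, 1 fell and 0 rose in KD, beside 10.4% and 11.0% of all genes, and the median change was -0.038 on the log2 scale. In OE 6 fell and 1 rose, beside 19.5% and 17.0%, with a median of -0.35. Adam10, the sheddase, fell from 426 ± 28.9 CPM (SD, n = 3) in WT to 371 ± 4.40 in KD and 185 ± 8.83 in OE, log2 fold changes of -0.20 (SE 0.057) and -1.20 (SE 0.068).

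Other routes of sodium and other voltage-gated channels were also counted. Of 14 tested genes for sodium transport, 2 rose and 6 fell in KD, where 21.3% of all genes passed, and 3 rose and 5 fell in OE, where 36.4% passed, with medians of -0.23 and -0.19. The count in KD was 5 in place of 8 when WT replicate 1, KD replicate 1 or KD replicate 2 was left out. Atp1b1, the beta subunit of the sodium pump, fell by 0.34 (SE 0.018) in KD and by 1.37 (SE 0.052) in OE on the log2 scale. Of 7 tested voltage-gated calcium channel genes, 2 fell and 0 rose in each comparison, beside the same 21.3% in KD and 36.4% in OE, with medians of -0.20 in KD and -0.14 in OE. The count was 1 in KD without KD replicate 2 and 5 in OE without WT replicate 1. Cacnb3, a cytoplasmic calcium channel subunit, fell by 0.23 (SE 0.035) in KD and by 0.40 (SE 0.028) in OE.

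Of 11 tested potassium channel genes, 1 rose and 5 fell in KD, where 21.3% of all genes passed, with a median of -0.56. In OE 1 rose and 4 fell, where 36.4% passed, with a median of 0.085. The KD count was 3 in place of 6 without KD replicate 2. Kcnab1, a cytoplasmic subunit, rose in KD by 0.26 (SE 0.073) and fell in OE by 0.77 (SE 0.073) on the log2 scale.

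**Figure D4:**
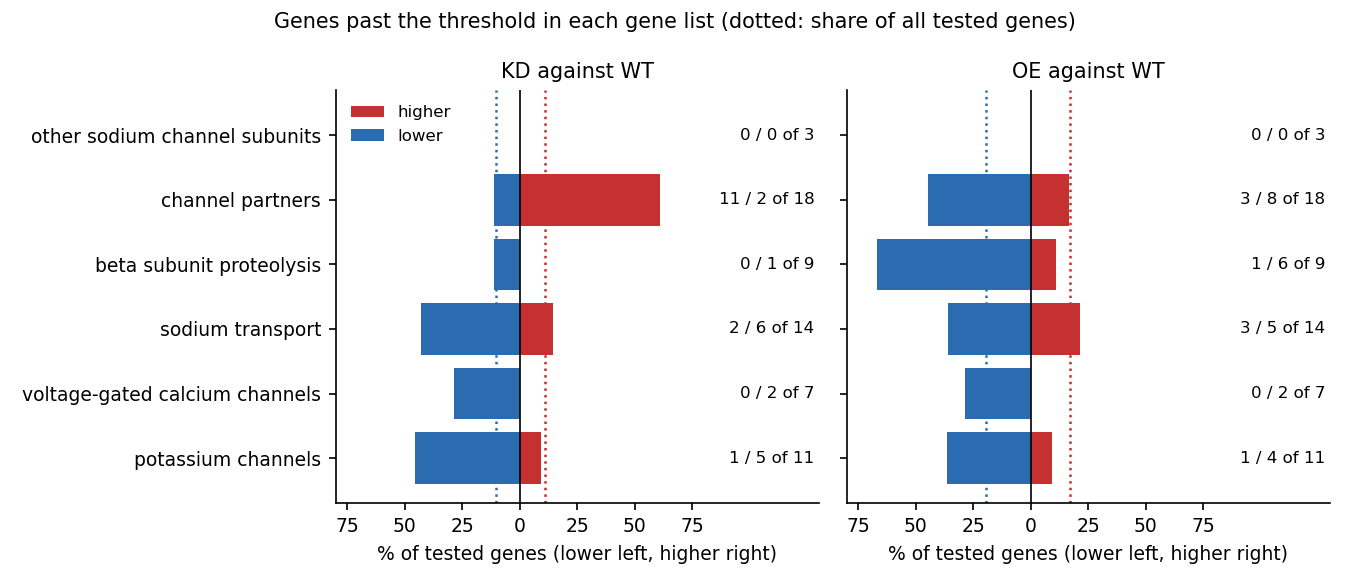
Share of tested genes past an adjusted p of 0.05 in 6 gene lists (horizontal axis, percent; lower to the left, higher to the right), for KD and OE against WT, with the counts higher / lower of the number tested; dotted lines give the shares over all genes tested. Partners of the channel had 11 higher in KD, proteolysis genes 6 lower in OE, and the other sodium channel subunits 0 in both.

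Markers of cells that make sodium channels were measured in the same libraries. Their counts past the threshold stand beside 11.0% of all tested genes higher and 10.4% lower in KD, and 17.0% and 19.5% in OE. Of 12 cardiomyocyte markers, 6 or 7 had at most 3 counts in each library of a group, Myh6 had 0 counts throughout, and the list summed to 2.69 to 3.47 CPM in WT, 2.31 to 2.82 in KD and 2.85 to 3.62 in OE. Of the 4 cardiomyocyte markers tested, 1 fell in KD, and 1 rose and 1 fell in OE. The one that fell in KD was Tnni3, the cardiac troponin I gene, lowest in KD as Scn4b and Scn9a were, at 0.266 ± 0.054 CPM (SD, n = 3) in WT, 0.030 ± 0.027 CPM in KD and 0.369 ± 0.095 CPM in OE. Tnnt2 rose in OE, from 0.590 ± 0.179 CPM in WT to 1.11 ± 0.186, Myl7 fell in OE by 0.67 (SE 0.22) on the log2 scale, and Ttn passed in neither comparison against WT. The 12 neuron markers summed to 38.5 to 44.7 CPM in WT, 56.5 to 60.2 in KD and 35.5 to 37.2 in OE. Most of that sum was Map2, at 32.7 ± 3.95, 50.3 ± 1.96 and 27.9 ± 0.645 CPM in WT, KD and OE, while Syt1 went the other way, at 1.52 ± 0.179, 0.792 ± 0.295 and 2.53 ± 0.647 CPM. Of the 4 neuron markers tested, 1 rose and 1 fell in each comparison against WT, and their median change in KD was -0.065 on the log2 scale. Snap25 and Rbfox3 had at most 2 counts in a library and 7 of the 12 had at most 3 counts in each library of a group.

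The 8 glia and Schwann cell markers summed to 144 to 155 CPM in WT, 168 to 175 in KD and 108 to 114 in OE, with Mbp the largest at 117 ± 5.74, 146 ± 4.09 and 77.6 ± 2.21 CPM. Cnp fell in KD, from 23.7 ± 1.61 to 18.1 ± 0.921 CPM, and stood at 22.8 ± 1.86 CPM in OE, and Erbb3 stood at 9.59 ± 0.660, 8.10 ± 0.263 and 9.86 ± 0.869 CPM in WT, KD and OE. Sox10, a defining gene of these cells, had at most 5 counts in a library. Of the 4 tested, 1 rose and 1 fell in KD, and 0 rose and 1 fell in OE. The 15 endothelial markers summed to 135 to 148 CPM in WT, 115 to 120 in KD and 94.7 to 104 in OE, and 4 to 6 of them had at most 3 counts in each library of a group. Of the 7 tested, 0 rose and 4 fell in KD, and 1, Ecscr, rose and 5 fell in OE. Beside these glial and endothelial counts, 11.0% of all tested genes rose and 10.4% fell in KD, and 17.0% and 19.5% in OE. The part of these marker genes in the levels of Scn2b, Scn4b and Scn9a was not tested.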

How the data were processed

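Poly-A RNA from 9 libraries was sequenced from both ends, per the labels' protocols. The table the authors deposited holds whole-number counts per gene and library, not normalised. The submitters' processing notes name the builds GRCm38 and mm10; aligner, counter and use of strand are not given in the sources used here, so near-identical or overlapping genes can share counts. Of 55774 rows, 168 genes filled 455 rows with identical counts and were counted once (55487 genes, 33519 with a count). All columns matched a sample by name.

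The 7 genes, the gene lists and the comparisons were chosen with earlier results of these data known. Counts were filtered with filterByExpr by group, scaled with TMM and fitted for 9 libraries in 1 robust quasi-likelihood model in edgeR 4.0.16 (R 4.3.3), with Benjamini-Hochberg adjustment over 16955 genes and a threshold of 0.05; limma 3.58.1 and DESeq2 1.42.0 gave alternatives. The procedure was tested on simulated data. Standard errors come from SDs of log2 CPM (prior count 2). Where no library of a group exceeded 3 counts, the fold was computed against 3 counts and is a bound. Intervals are exact, at 95%, and cover counting error only, since reads carry no molecular identifiers. Positions are from GENCODE M21, for 55227 genes; tables and figures used Python 3.11.15 and matplotlib 3.10.9.

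Named are the 7 genes, Zbtb46, the other subunits with counts, in each list the gene with the smallest p in KD and in OE, the tested gene nearest to each subunit on either side and neighbours with a 2-fold change past the threshold, and the 3 genes most correlated with each tested subunit. Mpzl2, Arcn1, Ube4a, Frrs1 as a gene with shared sequence, Olfr333-ps1 and single markers fall outside this rule and were picked with their values in view. Alternatives were other scaling factors, filters, tools, prior counts, a replicate block, a fit of the 2 groups alone and each library left out. Some genes that the rule or the lists would include are not reported here, and the list counts leave them out.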

Additional observations from a re-analysis of the deposited data

How the results depend on the processing

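The numbers of genes past the threshold stayed within 1.5 times of those reported under all alternatives, at 2473 to 4699 in KD against WT, 5129 to 6440 in OE against WT and 6019 to 8138 in OE against KD. Of the 7 genes, 3 passed in KD against WT with each library left out (3 to 3), and 2 when only those groups were fitted, where Scn9a was not tested. In OE against WT, 0 passed with library totals alone, and 0 to 2 with a library left out. With at least 10 counts in every library none of the 7 was tested. Pairing by replicate number was not seen over the tested genes. Same-numbered libraries correlated at -0.042 to 0.049 after group means were removed, and differently numbered ones at -0.061 to 0.042. A batch that affects few genes could not be seen this way. With the replicate block 3574, 6111 and 6969 genes passed in KD against WT, OE against WT and OE against KD, and 0 of the 7 genes in OE against WT. Signs turned, none past the threshold, for Scn3a in KD (0.014 with DESeq2, 0.40 without WT replicate 2, 0.39 without KD replicate 1; -0.39 to 0.40 over all libraries left out) and Scn7a in KD (0.25 without WT replicate 2, 0.27 without KD replicate 1; -0.44 to 0.27). Low counts limit Scn1a, Scn8a and Scn9a in KD, and 1 library holds all KD counts of Scn1a and of Scn9a.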
